A study of Mus musculus with 6 samples.

Results

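The small leucine-rich proteoglycans (SLRPs) are secreted matrix proteins built around a short, curved array of leucine-rich repeats, and 8 of their genes were taken here by symbol: Dcn, Bgn, Aspn, Lum, Fmod, Prelp, Omd and Ogn. All 8 were found among the 24062 genes of the deposited count table, and all 8 had enough counts to be tested together with 14082 other genes. The RNA came from mouse embryonic fibroblasts of the C57BL/6 strain, and each group had 3 libraries at day 4. In the p27 OE group a lentivirus overexpressed p27, which blocks cyclin-dependent kinases and is the product of Cdkn1b. The labels call these cells non-senescent at that time. The other group is labelled EV control, and what EV stands for, and whether these cells received a virus, is not spelled out. Libraries are named by their group and the number in their title. Whether a number marks a separate culture, embryo or day is not stated, so the p-values measure the spread between these libraries, part of which may be technical.

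SLRPs lie along collagen fibrils and limit their sideways growth, so that fibril diameter and spacing in skin, tendon, cornea and bone depend on them. Several also bind growth factors of the TGF-beta family or cell surface receptors. They are sorted into classes by sequence: decorin, biglycan and asporin in class I, lumican, fibromodulin, PRELP and osteomodulin in class II, and osteoglycin in class III. Connective tissue cells such as fibroblasts, tenocytes, chondrocytes and osteoblasts are their main source, and decorin and lumican are widely used as fibroblast markers.

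Total counts per library ran from 34920728 to 52098220. Cdkn1b stood at 419, 978 and 460.0 CPM (counts scaled to a common library size) in p27 OE 1, 2 and 3, against 52.2, 49.9 and 51.2 CPM in EV control 1, 2 and 3, so the targeted gene went with the labels. Of 10 fibroblast markers all 10 were tested, and they summed to between 58475 and 60355 CPM in p27 OE libraries and between 54488 and 59540 CPM in EV control libraries. The libraries numbered 1 stood apart from the others in both groups. Xist, the non-coding RNA of the inactive X chromosome, was at 477, 9.57 and 0.504 CPM in p27 OE 1, 2 and 3 and at 317, 5.93 and 0.601 CPM in EV control 1, 2 and 3. The Y-linked gene Ddx3y ran the other way, with 0.0220, 65.5 and 62.8 CPM in p27 OE libraries and 0.0556, 62.1 and 54.3 CPM in EV control libraries. Number 1 thus had RNA of an inactive X and almost no Ddx3y, while numbers 2 and 3 had Ddx3y and little Xist. The cells of number 1 were therefore not those of numbers 2 and 3. The libraries numbered 1 thus resembled each other across the groups. Number 2 had more Xist than number 3 in both groups, but a single gene does not show that these libraries pair by number. A check over all genes could not judge number 2 against number 3. Results are given from a fit without and a fit with the number as a block (the unpaired and the paired fit). Both use edgeR's quasi-likelihood test.

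Biglycan dominated the family in these fibroblasts. Per length, Bgn averaged 934 RPKM (CPM per kilobase of merged exons) over the 6 libraries, with a range of 901 to 964. Aspn followed at 151 RPKM (141 to 167) and Ogn at 131 RPKM (92.2 to 206), and the ranges of this pair overlapped. Fmod at 29.0 RPKM (13.6 to 56.3), Lum at 24.4 RPKM (10.0 to 49.9) and Dcn at 12.0 RPKM (6.79 to 20.2) formed the next tier, again with overlapping ranges. Prelp averaged 7.47 RPKM (3.77 to 13.98) and Omd 3.75 RPKM (3.11 to 5.14). Bgn lay above the ranges of all the others, and Aspn and Ogn above those of the remaining 5, whereas Prelp overlapped both Dcn above it and Omd below it. Decorin thus stood below biglycan in every library. Within each of the 6 libraries the order Fmod, Lum, Dcn, Prelp and Omd, from high to low, was the same. The overlaps among these 5 genes therefore arose across libraries. Bgn made up 68.5%, 76.6% and 77.4% of the summed RPKM of the 8 genes in p27 OE 1, 2 and 3, against 64.9%, 74.2% and 73.6% in EV control 1, 2 and 3. The merged exons of its 8 annotated transcripts span 6099 bases, against 2666 bases in the longest transcript. With the longest transcript as the length its mean level was 2137 RPKM instead, which leaves it first in the order. The percentages above rest on the merged exons and would be higher for Bgn with the longest transcripts.

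The 8 genes together took 0.702%, 0.632% and 0.637% of all counts in p27 OE 1, 2 and 3 and 0.744%, 0.646% and 0.633% in EV control 1, 2 and 3. The means were 0.657% ± 0.0389 in p27 OE and 0.674% ± 0.0608 in EV control (SD, n = 3 each), a difference smaller than the spread within either group (exact permutation test over libraries, two-sided, p = 0.6, where 0.1 is the smallest possible). The sign of this difference depended on 1 library and on the denominator: it was 0.0176 percentage points without EV control 1 and 0.00462 with TMM-scaled library sizes, against -0.0174 as measured. Without Bgn, the other 7 genes summed to 1176, 774 and 716 CPM in p27 OE libraries and to 1393, 828 and 838 CPM in EV control libraries (exact permutation test, two-sided, p = 0.5). The highest sum of each group was in the library numbered 1. Both permutation tests ignored the number. Within each number the sum of the 7 genes was lower in p27 OE. Ogn and Aspn made up most of this sum in every library and were lower in p27 OE in each number, as was Lum. Dcn, Fmod, Prelp and Omd differed in sign between the numbers. The share of the 8 genes was lower in p27 OE in numbers 1 and 2 and higher in number 3.

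**Figure D1:**
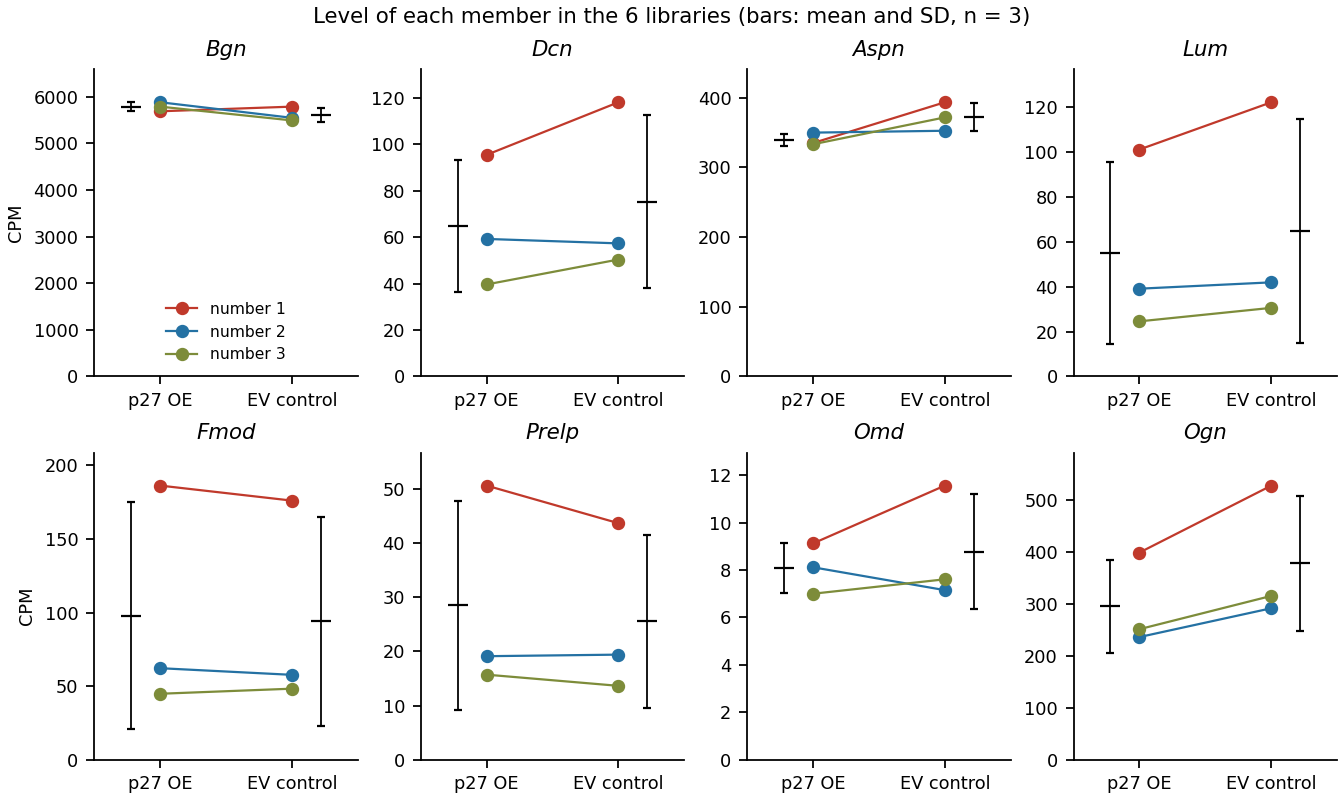
Level of each of the 8 genes in CPM, with 1 point per library, p27 OE to the left of EV control, lines joining libraries of the same number, and bars for the mean and SD of each group (n = 3). Ogn, Lum and Aspn are lower in p27 OE in all 3 pairs, and in Dcn, Lum, Fmod, Prelp, Omd and Ogn the library numbered 1 is the highest of its group.

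In the unpaired fit none of the 8 genes differed between p27 OE and EV control, and that fit called 0 of all 14090 genes tested (0%) at an adjusted p under 0.05. At an unadjusted p under 0.05 it had 1017 genes, or 7.22%, but 0 of the 8. DESeq2 without the number called 89 genes and limma-voom 0, and neither called any of the 8. The paired fit called 2 of the 8, Ogn and Lum, both lower in p27 OE, beside 3.63% of all genes called lower, and it called 0 of the 8 higher beside 3.80% of all genes. At an unadjusted p under 0.05 the paired fit had 4 of the 8, beside 23.9% of all genes. The paired log2 fold change was below 0 for 5 genes and above 0 for 3, with a median of -0.12, against a median of -0.00118 over all genes tested, of which 50.4% were below 0. In RNA from bulk cultures, fewer cells that make a transcript and less of it per cell cannot be told apart.

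Among the class I genes, biglycan and decorin carry glycosaminoglycan chains and bind TGF-beta, and biglycan released from the matrix can also engage Toll-like receptors. Bgn had 5688, 5882 and 5788 CPM in p27 OE 1, 2 and 3 and 5788, 5548 and 5492 CPM in EV control 1, 2 and 3. The groups overlapped and no library stood out. The means were 5786 ± 97.1 CPM in p27 OE and 5609 ± 157 CPM in EV control (SD, n = 3 each). The paired log2 fold change was 0.05, with a 95% interval of -0.09 to 0.18 (edgeR quasi-likelihood, Benjamini-Hochberg adjusted p = 0.707).

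Dcn had 95.5, 59.2 and 39.6 CPM in p27 OE libraries and 118, 57.3 and 50.4 CPM in EV control libraries. It was lower in p27 OE in the pairs numbered 1 and 3 but not in the pair numbered 2, and the groups overlapped widely. The paired log2 fold change of -0.20 ± 0.08 (SE) did not pass the threshold (edgeR, adjusted p = 0.124), although it did without the libraries numbered 2, at -0.32 (edgeR, adjusted p = 0.00413). Asporin, which bears a run of aspartate residues and no glycosaminoglycan chain, binds collagen and TGF-beta. Aspn had 335, 349.7 and 333 CPM in p27 OE libraries and 393, 352 and 372 CPM in EV control libraries. It was the only one of the 8 genes whose groups did not overlap, every p27 OE library lying below every EV control library, which also held for 8.28% of all genes tested. None of the 8 lay wholly higher in p27 OE, as 6.61% of all genes did. The means of Aspn were 339 ± 9.18 CPM in p27 OE and 372 ± 20.5 CPM in EV control (SD, n = 3 each), but its paired log2 fold change of -0.13 ± 0.06 (SE) was not called (edgeR, adjusted p = 0.181).

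Of the class II genes, lumican carries keratan sulfate in the cornea and is needed there for evenly thin collagen fibrils. Lum had 101, 39.1 and 24.5 CPM in p27 OE libraries and 122, 41.9 and 30.5 CPM in EV control libraries. Within each number the p27 OE library was the lower one, while across numbers the levels differed far more than between the groups. Lum fell in the paired fit by 0.23 on the log2 scale, with a 95% interval of -0.37 to -0.09, or 14.8% (edgeR, adjusted p = 0.043). This call was close to the threshold: without both libraries of number 1 or 3 the adjusted p in edgeR was 0.1 and 0.313, and DESeq2 with the block gave 0.0901.

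Fibromodulin, which binds type I collagen beside lumican and is abundant in tendon, was not called. Fmod had 186, 62.2 and 44.8 CPM in p27 OE libraries and 176, 57.7 and 48.3 CPM in EV control libraries. The order of the libraries was the same in both groups, and the pairs differed in sign. Its paired log2 fold change was 0.03, with a 95% interval of -0.10 to 0.16 (edgeR, adjusted p = 0.81). Prelp, whose product binds heparan sulfate and collagen and is thought to tie basement membranes to the tissue below, had 50.6, 19.1 and 15.7 CPM in p27 OE libraries and 43.6, 19.4 and 13.6 CPM in EV control libraries. It was higher in p27 OE in the pairs numbered 1 and 3, and its paired log2 fold change was 0.14, with a 95% interval of -0.03 to 0.30 (edgeR, adjusted p = 0.31). Omd, which encodes osteomodulin, a keratan sulfate proteoglycan of bone, had 9.12, 8.11 and 6.999 CPM in p27 OE libraries and 11.6, 7.15 and 7.61 CPM in EV control libraries. With 253 to 624 reads it was the most thinly counted of the 8, its groups overlapped, and the paired log2 fold change of -0.10 had a 95% interval of -0.37 to 0.16 (edgeR, adjusted p = 0.662).

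The class III gene Ogn, which encodes osteoglycin (mimecan), a protein of bone, cornea and vessel walls that affects collagen fibril thickness, showed the clearest difference of the family. It had 399, 236 and 252 CPM in p27 OE 1, 2 and 3 and 528, 292 and 316 CPM in EV control 1, 2 and 3. The groups overlapped through p27 OE 1, which was above EV control 2 and 3, and within each number the p27 OE library was lower. The means were 296 ± 89.9 CPM in p27 OE and 379 ± 130.1 CPM in EV control (SD, n = 3 each), and the unpaired log2 fold change of -0.36 ± 0.29 (SE) was not called (edgeR, adjusted p = 0.855). It was -0.63 without p27 OE 1 and -0.039 without EV control 1. The log2 ratio of p27 OE to EV control was -0.40, -0.30 and -0.33 in the pairs numbered 1, 2 and 3, a narrow spread. In the paired fit Ogn fell by 0.35 on the log2 scale, with a 95% interval of -0.46 to -0.23, or 21.3% (edgeR, adjusted p = 0.00276). It was called in each of the 9 settings run with the block, those without each number included, with adjusted p-values between 1.24e-05 and 0.0305. Set against biglycan in the same library, Ogn reads were 7.02%, 4.02% and 4.35% of Bgn reads in p27 OE libraries and 9.13%, 5.26% and 5.75% in EV control libraries.

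**Figure D2:**
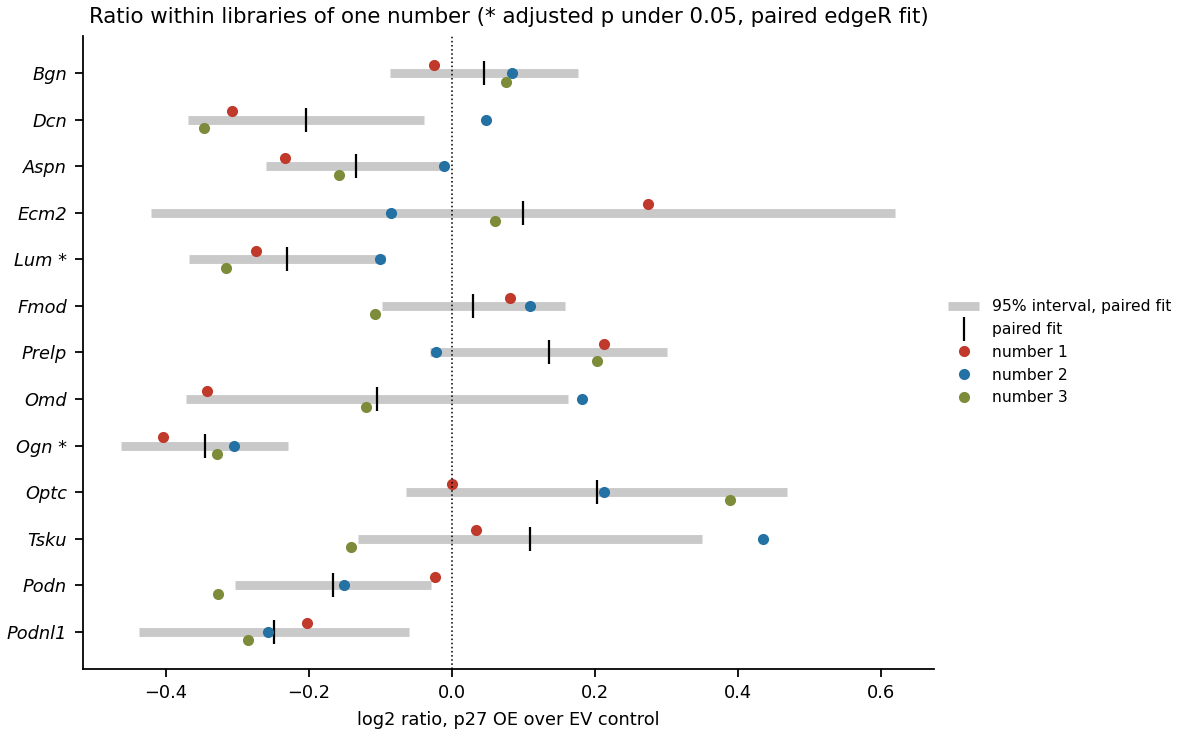
Log2 ratio of p27 OE to EV control within the libraries of each number (points) for the 8 genes and 5 further genes of the family, with the paired edgeR estimate (vertical tick) and its 95% interval (grey bar). The points of Ogn lie between -0.40 and -0.30, and those of Lum between -0.32 and -0.10, while the points of Dcn, Omd, Prelp, Fmod and Bgn lie on both sides of 0.

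Differences between the numbers were larger than those between the groups for 6 of the 8 genes. In the paired edgeR fit, 6 of the 8 genes differed by number, beside 31.2% of all genes tested, and all 6 were higher in the libraries numbered 1. Each adjusted p in this paragraph is from the F test of any difference among numbers 1, 2 and 3. It is not a test of the fold printed beside it. Averaged over both groups, number 1 exceeded the mean of numbers 2 and 3 (taken on the log2 scale) by a fold of 3.42 for Fmod (edgeR, adjusted p = 4.77e-10), 3.33 for Lum (adjusted p = 1.05e-09), 2.80 for Prelp (adjusted p = 3.38e-08) and 2.08 for Dcn (adjusted p = 2.3e-06). The fold was 1.69 for Ogn (edgeR, adjusted p = 9.22e-07) and 1.38 for Omd (adjusted p = 0.0335). Of all genes tested, 3.75% had a log2 value above 1 for number 1 over the others, as Fmod, Lum, Prelp and Dcn did. Bgn and Aspn were not called by number, with folds of 1.01 (edgeR, adjusted p = 0.963) and 1.03 (adjusted p = 0.84). Of the 5 other SLRP genes tested, 3 differed by number, and they did not share a direction: Ecm2 was higher in number 1, by a fold of 1.88 (edgeR, adjusted p = 0.0215), while Tsku at 0.769 (adjusted p = 0.0276) and Podnl1 at 0.765 (adjusted p = 0.018) were lower.

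The pattern was there in both groups. Number 1 was above the mean of the other two by a fold of 3.48 in p27 OE and 3.32 in EV control for Fmod. For Lum these folds were 3.18 in p27 OE and 3.37 in EV control, for Prelp 2.91 in p27 OE and 2.64 in EV control, and for Ogn 1.64 in p27 OE and 1.74 in EV control. The summed markers of other matrix-forming cells were also highest in number 1. The 5 tenocyte markers, all tested, summed to 284, 188 and 176 CPM in p27 OE libraries and to 276, 178 and 178 CPM in EV control libraries. Of the 5, 3 differed by number and were higher in number 1 (edgeR F test of the number, adjusted p under 0.05). This stands beside 31.2% of all genes that differed by number. Scx, another of the 5, did not share this direction, with 17.8, 17.4 and 19.3 CPM in p27 OE libraries and 21.3, 26.1 and 26.2 CPM in EV control libraries. The 11 chondrocyte and osteoblast markers, of which 6 were tested, summed to 227, 131 and 140 CPM in p27 OE libraries and to 158, 116 and 114 CPM in EV control libraries. Within each group these sums and Xist were highest in number 1, as were Fmod, Lum, Prelp, Dcn and Ogn, while Ddx3y was lowest there. The part of the sums, Xist and Ddx3y in the difference between numbers was not tested.

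**Figure D3:**
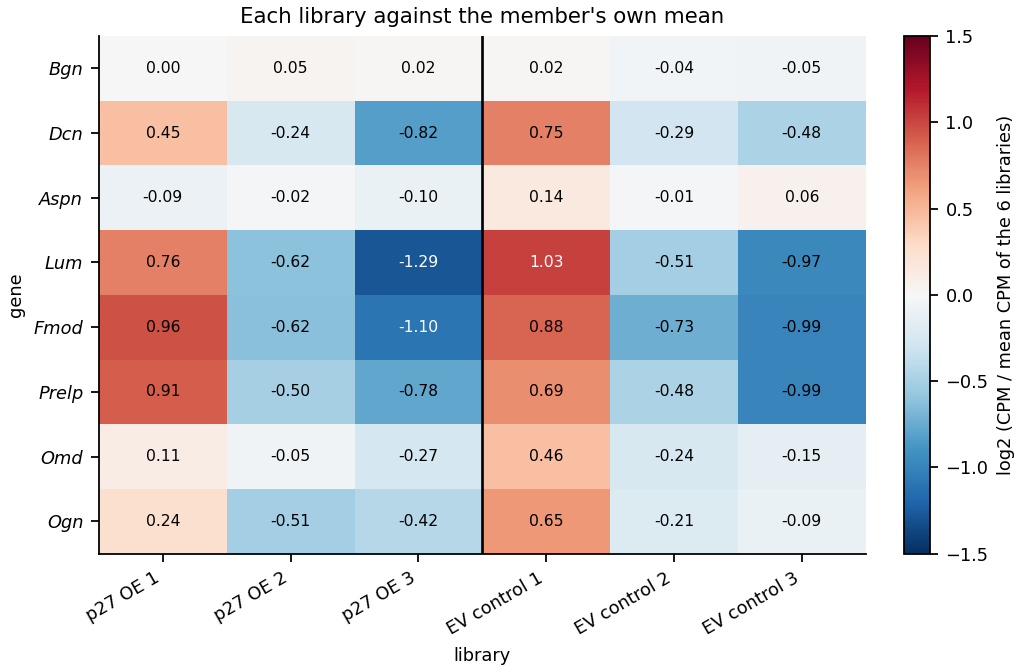
Log2 of the CPM of each gene in each library over that gene's mean of the 6 libraries, with p27 OE libraries left of the black line and EV control libraries right of it. Lum, Fmod and Prelp reach 0.69 to 1.03 in the libraries numbered 1 and -0.48 to -1.29 in the others, while Bgn stays within -0.05 to 0.05.

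Across the 6 libraries the genes therefore fell into those that moved together and those that did not. As a description of 6 libraries that share numbers, Pearson's r of log2 CPM was 0.99 between Dcn and Lum, 0.99 between Fmod and Prelp and 0.98 between Lum and Fmod. Bgn had r between -0.15 and 0.35 with the other 7 genes. Among 10608 genes that averaged 5 CPM or more, the pattern of Ogn was most like that of Lrig3 (r = 0.999) and Armcx2 (r = 0.998), and the pattern of Lum most like that of 1110057K04Rik (r = 0.997) and Prrx1 (r = 0.996). Prrx1, a mesenchymal homeobox gene, was also next to Dcn (r = 0.996), after Slc16a13 (r = 0.998). Fmod was most like Il1rn (r = 0.998) and Hmgb2 (r = 0.997), and Prelp was most like Comp, a cartilage and tendon matrix gene, and Prmt6 (r = 0.997 each). Comp had 19.9, 5.14 and 4.24 CPM in p27 OE libraries and 14.7, 4.97 and 3.38 CPM in EV control libraries, the same order of libraries as Prelp in p27 OE and in EV control. The nearest patterns were Sestd1 (r = 0.992) and Abtb2 (r = 0.988) for Bgn, Eif3e (r = 0.988) and Atp5sl (r = 0.985) for Aspn, and Glt8d1 (r = 0.996) and Casp12 (r = 0.992) for Omd. A high r does not mean a like size of difference: Lrig3 had 90.3, 64.1 and 66.2 CPM in p27 OE libraries and 108, 75.1 and 77.1 CPM in EV control libraries.

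Of the 8 genes, 7 lie in clusters with other SLRP genes, and their values are set side by side here. Ogn (chr13:49608046-49624501), Omd (chr13:49582462-49592822) and Aspn (chr13:49544443-49567565) stand on the plus strand of GRCm38 within 120 kb, next to Ecm2 and inside the gene Cenpp on the opposite strand. Aspn shares 7 exon bases with Cenpp, while Ogn and Omd share none. Ogn and Aspn had overlapping levels per length, with a fold of 1.69 for number 1 in Ogn against 1.03 in Aspn. Dcn (chr10:97479609-97518143) and Lum (chr10:97565128-97572703) lie with Kera and Epyc within 203 kb of the plus strand. Prelp (chr1:133910304-133921414, minus strand) and Fmod (chr1:134037254-134048277, plus strand) lie with Optc within 151 kb, and 9.68% of the exon bases of Prelp overlap the antisense gene Gm15851, whose reads cannot be told apart because the library kit does not mark strand. Bgn (chrX:73483602-73495933, plus strand) lies outside these clusters. Dcn and Lum on chromosome 10 had paired log2 fold changes of -0.20 and -0.23, Prelp and Fmod on chromosome 1 of 0.14 and 0.03, and Aspn, Omd and Ogn on chromosome 13 of -0.13, -0.10 and -0.35.

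**Figure D4:**
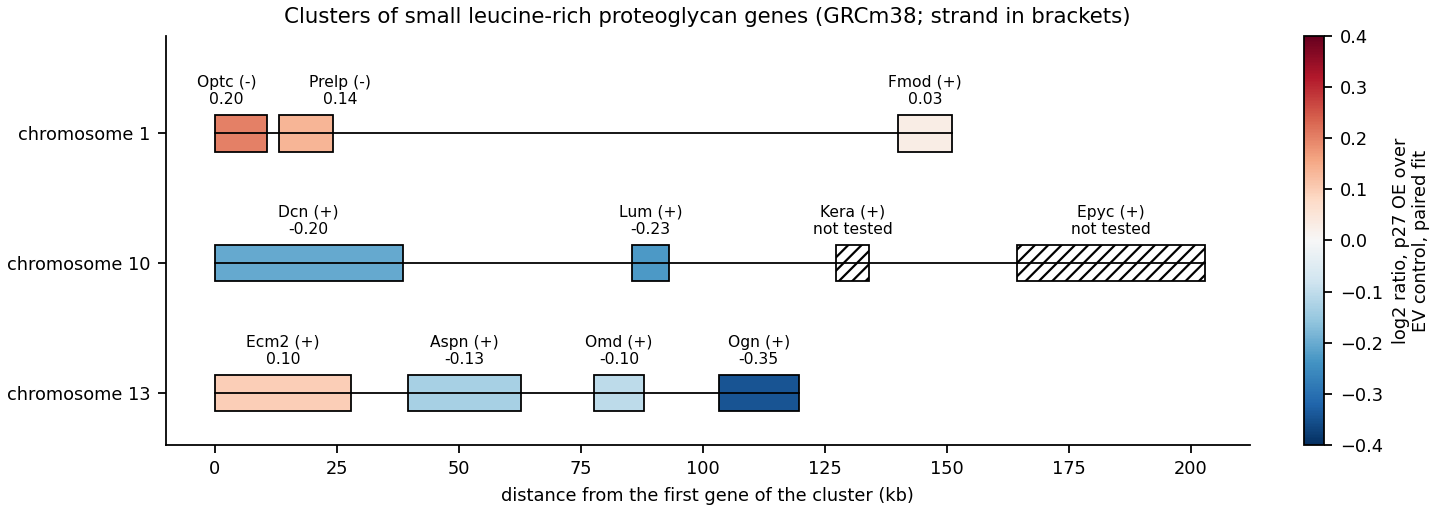
Positions of SLRP genes in their 3 clusters (GRCm38), drawn to scale as distance in kb from the first gene of each cluster, with strand in brackets. The fill is the paired log2 ratio of p27 OE over EV control, and hatched genes had too few counts to be tested. Ecm2 at 0.10 and Ogn at -0.35 sit at opposite ends of the chromosome 13 cluster.

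Promoter sequence was held for 6 of the 8 genes in the RefSeq table (GRCm38.p6), as the 250 bases before the start of each gene. Those of Ogn, which fell and varied with the number, of its neighbour Aspn, and of Bgn, the most abundant of the 8, are shown, 5′ to 3′, with matches to TATAAA or GGGCGG on either strand in capitals, overlapping matches merged.
Ogn, chr13:49607765-49608014, plus strand: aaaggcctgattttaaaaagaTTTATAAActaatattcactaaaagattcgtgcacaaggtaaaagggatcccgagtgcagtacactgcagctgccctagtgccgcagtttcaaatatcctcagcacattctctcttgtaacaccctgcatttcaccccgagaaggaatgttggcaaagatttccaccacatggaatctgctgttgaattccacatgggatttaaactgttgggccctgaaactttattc
Aspn, chr13:49544193-49544442, plus strand: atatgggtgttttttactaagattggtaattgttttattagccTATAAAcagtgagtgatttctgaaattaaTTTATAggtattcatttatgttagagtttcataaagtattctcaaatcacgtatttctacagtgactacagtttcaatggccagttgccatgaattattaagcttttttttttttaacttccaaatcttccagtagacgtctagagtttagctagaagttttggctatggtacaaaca
Bgn, chrX:73483351-73483600, plus strand: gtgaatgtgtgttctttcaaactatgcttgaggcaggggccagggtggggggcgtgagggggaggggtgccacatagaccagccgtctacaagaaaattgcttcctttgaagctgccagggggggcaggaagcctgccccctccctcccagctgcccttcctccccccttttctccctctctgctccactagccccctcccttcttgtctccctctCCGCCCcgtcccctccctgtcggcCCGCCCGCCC
Bases G and C made up 42.0% of the window in Ogn, 30% in Aspn and 64.4% in Bgn, against a median of 52.4% over 32851 promoters of the same length. TATAAA, the letters of the core of the TATA box, was found in Ogn and Aspn among the 6 and in 12.4% of all promoters. In both genes every match lay nearer the far end of the window than the start of the gene. Whether any of them acts as a TATA box was not tested. GGGCGG, the GC box, was found in Bgn and in 32.7% of all promoters. TGANTCA, the AP-1 motif, was in 0 of the 6 windows and in 6.75% of all, the CArG box was in 0 of the 6 and in 1.47% of all, and the E-box CANNTG was in 4 of the 6 and in 66.2% of all. These matches are letters in a window, and no binding was measured.

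The remaining genes of the family add 9 to the 8, and 5 of those had enough counts to be tested. None was called in the paired edgeR fit, where 2 of the 5 had an unadjusted p under 0.05 (23.9% of all genes did), nor by DESeq2 or limma-voom with the block. Podn, which encodes podocan, a class V SLRP, had 88.4, 82.5 and 72.2 CPM in p27 OE libraries and 89.9, 91.6 and 90.5 CPM in EV control libraries. All p27 OE values lay below all EV control values, as for Aspn, but the paired log2 fold change of -0.17 ± 0.06 (SE) was not called (edgeR, adjusted p = 0.129). It was called without the libraries numbered 1, at -0.24 (edgeR, adjusted p = 0.0145). Podnl1, a class V relative of podocan, had 11.2, 14.5 and 14.1 CPM in p27 OE libraries and 12.9, 17.3 and 17.2 CPM in EV control libraries, with the p27 OE library lower in all 3 pairs (paired log2 fold change -0.25 ± 0.09, edgeR adjusted p = 0.102). Tsku, which encodes tsukushi, a secreted regulator of BMP and Wnt signals, had 55.7, 93.6 and 59.9 CPM in p27 OE libraries and 54.4, 69.3 and 66.1 CPM in EV control libraries. Optc, the gene of opticin, known from the vitreous of the eye, had 6.37, 7.83 and 9.52 CPM in p27 OE libraries and 6.37, 6.75 and 7.27 CPM in EV control libraries. The pairs of Tsku differed in sign, and neither gene was called (edgeR, adjusted p = 0.579 for Tsku and 0.347 for Optc). Ecm2 stayed between 0.941 and 2.33 CPM in all libraries. Kera and Epyc, the corneal and growth plate members of the chromosome 10 cluster, had at most 20 and 24 reads in a library, and Chad and Nyx at most 21 and 8, too few for a test at this depth.

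Genes whose products meet SLRPs in the matrix were counted in the same paired fit, and none of these lists had a gene called in the unpaired edgeR fit. Of 18 fibrillar collagens and matrix partners, 6 rose, 0 fell and 12 were not called, beside 3.80% of all genes called higher and 3.63% called lower, with a median log2 fold change of 0.17. Fn1, the gene of fibronectin, had 13637, 16431 and 15900 CPM in p27 OE libraries and 6599, 9000.2 and 10617 CPM in EV control libraries, a paired log2 fold change of 0.83 (edgeR, adjusted p = 0.000196). Col2a1, the fibrillar collagen of cartilage, rose by 0.77 (edgeR, adjusted p = 2.1e-05), elastin (Eln) by 0.55 (adjusted p = 0.000135) and fibrillin-1 (Fbn1) by 0.54 (adjusted p = 0.00268). These 4 partners were thus higher in p27 OE while Ogn and Lum were lower. Among the fibrillar collagens not called were Col1a1 at 0.15, Col1a2 at 0.06 and Col3a1 at -0.15 (edgeR, adjusted p = 0.2, 0.62 and 0.184).

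The list of enzymes that build or sulfate glycosaminoglycan chains held 30 genes, among them Tpst1 and Tpst2, whose products sulfate protein tyrosines instead. Of the 30, 0 were called by edgeR, DESeq2 or limma-voom with the block, with 6 at an unadjusted p under 0.05 in edgeR (23.9% of all genes were) and a median log2 fold change of -0.02. The members with the smallest p in the unpaired fit were Chst1 and B4galt4. Chst1, a keratan sulfate sulfotransferase, had a paired log2 fold change of -0.36 (edgeR, adjusted p = 0.0578) and the galactosyltransferase gene B4galt4 one of -0.31 (adjusted p = 0.0961). In the paired fit Tpst1, at -0.22 (edgeR, adjusted p = 0.0542), and Chpf, a chondroitin polymerizing factor gene, at 0.18 (adjusted p = 0.0577), were as near the threshold. Without the libraries numbered 1, Chpf and Chpf2 were called higher (edgeR, adjusted p = 0.047 and 0.0437) and Chst1, B4galt4 and Tpst1 lower (adjusted p = 0.00426, 0.0294 and 0.0218), beside 6.36% of all genes higher and 6.04% lower. Among 16 tested genes of proteases and inhibitors that process matrix proteins, 4 rose and 0 fell, beside 3.80% and 3.63% of all genes. Bmp1, whose product removes the propeptide of biglycan and osteoglycin, had 429, 480.3 and 477 CPM in p27 OE libraries and 366, 408 and 409.7 CPM in EV control libraries, a paired log2 fold change of 0.23 (edgeR, adjusted p = 0.0215) that was not called without the libraries numbered 3 (adjusted p = 0.192). Its relative Tll1 rose by 0.44 (edgeR, adjusted p = 0.00175), and the metalloproteinase inhibitor genes Timp1 and Timp3 by 0.45 (adjusted p = 0.0189) and 0.35 (adjusted p = 0.00318). Timp1, too, was not called without number 3 (edgeR, adjusted p = 0.086).

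Of 23 tested ligands, receptors and partners of SLRPs, 4 rose and 1 fell, beside 3.80% and 3.63% of all genes. Without the libraries numbered 1 these counts were 7 and 2, beside 6.36% and 6.04% of all genes. Ctgf, a matricellular protein gene induced by TGF-beta, rose by 0.70 (edgeR, adjusted p = 4.85e-05), Wisp1, whose product binds decorin and biglycan, by 0.36 (adjusted p = 0.00318) and the integrin gene Itgb1 by 0.35 (adjusted p = 0.00715, and 0.0851 without number 3). Tgfbr3, the gene of betaglycan, fell by 0.40 (edgeR, adjusted p = 0.00375). Of 21 tested large and cell surface proteoglycans, 6 rose and 2 fell, beside the same 3.80% and 3.63%. Prg4, the gene of lubricin, rose by 1.10 (edgeR, adjusted p = 9.77e-05), Acan, the gene of aggrecan, by 0.59 (adjusted p = 0.00214) and Cspg4, the gene of NG2, by 0.51 (adjusted p = 0.00127), while the glypican gene Gpc3 fell by 0.31 (adjusted p = 0.00975). Leaving out number 3 ended the call of Gpc3 (edgeR, adjusted p = 0.146). Without the libraries numbered 3 the counts of this list were 5 higher and 0 lower, beside 1.58% and 0.746% of all genes.

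**Figure D5:**
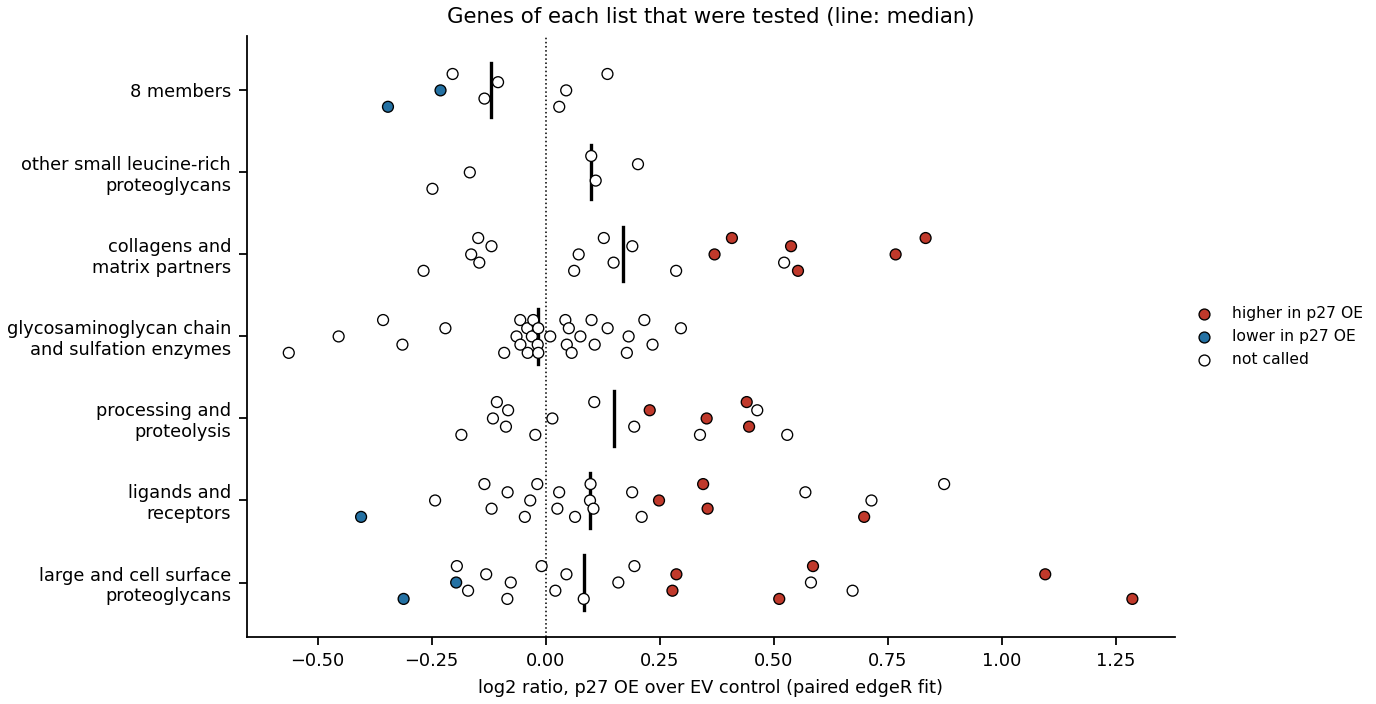
Paired log2 ratio of p27 OE over EV control for every tested gene of the 8 SLRPs and of 6 related lists, 1 point per gene, with a line at the median of each list and filled points for genes called at an adjusted p under 0.05 by edgeR. Called genes of the 8 SLRPs lie below 0, called collagens, matrix partners and processing genes lie above 0, and no gene of the glycosaminoglycan and sulfation list is called.

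Markers of other cell types stood beside these results as follows. Pdgfra, a fibroblast and mesenchymal marker, had 233, 106 and 84.9 CPM in p27 OE libraries and 304, 144 and 132 CPM in EV control libraries, and fell by 0.48 on the log2 scale in the paired fit (edgeR, adjusted p = 0.000575). It was thus lower in p27 OE in all 3 pairs and highest in number 1, as Ogn and Lum were. Of the 10 fibroblast markers Twist1 also fell, by 0.23 (edgeR, adjusted p = 0.0483), and 8 were not called. All counts of called markers in this paragraph stand beside 3.80% of all genes called higher and 3.63% called lower in the paired fit. Of the tenocyte markers Scx fell by 0.42 (edgeR, adjusted p = 0.00968) and 4 of 5 were not called, and of the 6 tested chondrocyte and osteoblast markers Col2a1 and Acan rose and 4 were not called. Macrophage markers (9 in the table, 7 tested) summed to between 21.2 and 31.0 CPM in p27 OE libraries and between 18.4 and 21.8 CPM in EV control libraries, endothelial markers (6, of which 3 tested) to between 4.70 and 5.34 CPM in p27 OE and between 2.94 and 4.57 CPM in EV control, and epithelial markers (5, of which 3 tested) to between 9.84 and 9.99 CPM in p27 OE and between 10.8 and 12.1 CPM in EV control. Emr1 and Emcn were the macrophage and endothelial genes called, at 0.77 (edgeR, adjusted p = 0.0326) and 0.93 (adjusted p = 0.0354), and Krt18 at -0.31 and Cldn4 at 1.37 among the epithelial genes were not called. DESeq2 with the block called 0 macrophage and 0 endothelial markers, and Emcn lay between 0.904 and 2.28 CPM in the 6 libraries. The median of the tested macrophage genes was 0.45, but Cd68 among them was at -0.49 and not called (edgeR, adjusted p = 0.1). The muscle marker Des and the neural marker Tubb3 were called at 0.69 (edgeR, adjusted p = 2.67e-05) and 0.63 (adjusted p = 0.00158), with Ckm and Elavl3 at 0 reads in every library. Without the libraries numbered 2 or 3, Twist1 (edgeR, adjusted p = 0.318 and 0.159), Emr1 (0.188 and 0.0658) and Emcn (0.0689 and 0.226) were not called, and Scx was not called without number 3 (0.0656). The part of these shifts in the lower levels of Ogn and Lum was not tested.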

How the data were processed

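RNA from 6 libraries of mouse embryonic fibroblasts, 3 p27 OE and 3 EV control, was extracted on columns and prepared with a TruSeq RNA v2 kit, per the labels' protocols. The authors deposited 1 table of whole-number read counts per gene, not normalized, and 0 of its columns were left unmapped. The mm10 build, featureCounts 1.4.6 (Subread), Bowtie2 2.2.6 and TopHat2 2.0.14 are named in the submitters' processing notes. The annotation, the strand setting and how reads with several matches were handled were not given in the sources used here. Libraries were grouped by title. The closest replicates, EV control 2 and 3, differed by a mean chi-square per gene of 9.67, where sampling noise gives values near 1, so none was taken for a repeat.

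Genes were kept by filterByExpr (minimum count 10, minimum total 15), which left 14090, scaled by TMM and tested with edgeR 4.0.16 in R 4.3.3 (quasi-likelihood F test, robust, two-sided, Benjamini-Hochberg over all tested genes, threshold 0.05). The standard error was taken from the F statistic. CPM uses the TMM-scaled library sizes, and RPKM is CPM per kilobase of merged exons in GENCODE M21 (GRCm38, the assembly mm10 names). The members' counts ran from 253 (Omd) to 312512 (Bgn) per library, with a counting error of 6.29% at the lowest, which covers counting only.

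The main fit had no term for the number. The pairing rests on the numbers in the titles and on a check of deviations from the group mean (log2 CPM, prior count 2). They correlated at 0.772, 0.416 and 0.535 within numbers 1, 2 and 3, and at 0.408 and 0.391 between numbers 2 and 3. The check separates number 1. Number 1 lay far from the others and moved the group mean away from numbers 2 and 3 alike. A positive correlation between 2 and 3 was therefore built in, and the check cannot judge whether they pair by number. Xist was at 9.57 CPM in p27 OE 2 and 5.93 CPM in EV control 2, against 0.504 CPM in p27 OE 3 and 0.601 CPM in EV control 3. The paired fit has the number as a block. The F test of the number itself was chosen after the data were examined. It asks for any difference among the numbers, and the fold of number 1 over the others was not tested alone. Alternatives were DESeq2 1.42.0, limma-voom (limma 3.58.1), upper-quartile or RLE scaling, testing all counted genes or those at 1 CPM in 3 libraries, and leaving out libraries.

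The members and the gene lists were chosen with earlier results of these data known. All members and other SLRPs are named, and of each other list the called genes with the 4 smallest p in the paired fit, or, where none was called, the 2 with the smallest p in the unpaired fit. Beside each member stand the 2 genes with the highest r. Genes outside this rule, Xist, Ddx3y, Tpst1, Tpst2, Chpf, Chpf2, Col1a1, Col1a2, Col3a1 and Cd68, were chosen after their values were seen. Adgre1 is listed as Emr1.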

Additional observations from a re-analysis of the deposited data

How the results depend on the processing

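The unpaired edgeR fit called 0 genes and 0 members. It called 1 gene without the filter on low counts, and leaving out 1 library gave 0 to 1 genes and 0 members. DESeq2 without the block called 89 genes, 53 higher and 36 lower. With the replicate block, edgeR called 1047 genes and 2 members, RLE scaling 1042 and 2, upper-quartile scaling 1219 and 2 (483 higher and 736 lower, against 535 and 512 with TMM), the filter at 1 CPM 1018 and 2, DESeq2 830 and 1 (Ogn), and limma-voom 1042 and 2. With the block and without number 1, 2 or 3 these counts were 1741 genes and 1 member (Ogn), 928 and 3 (Dcn, Lum and Ogn), and 330 and 1 (Ogn). The causes were not tested. Scaling moved the median of all genes by at most 0.0206 on the log2 scale.

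Of 168 values of the members' log2 fold changes under 21 alternatives, 139 kept their direction and side of the threshold, 16 became called (Ogn 9, Lum 6, Dcn 1), all with the block, and 13 reversed. Leaving out 1 library without the block gave ranges of -0.61 to 0.27 for Dcn, -1.03 to 0.60 for Lum, -0.81 to 0.88 for Fmod, -0.25 to 0.13 for Omd and -0.56 to 0.79 for Prelp. With the block, Omd was at 0.028 without number 1 and Fmod at -0.00347 without number 2. Ogn ran from -0.63 to -0.039 leaving out 1 library, and Ogn, Aspn and Bgn reversed in none of the 21. The members' share of counts differed by -0.0174 percentage points, by 0.00462 with TMM-scaled library sizes and by -0.0398 to 0.0176 leaving out 1 library.

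The mean RPKM of the members with the longest transcript stayed within 1 SD except for Bgn, which moved to 2137. Depth limits Omd most, and Kera, Epyc, Chad and Nyx could not be tested.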
